A study of Homo sapiens with 12 samples.

Results

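CENPU was knocked down with a small interfering RNA (siRNA) in Huh-7, and the RNA of these cells was compared with that of Huh-7 given a control siRNA. Huh-7 is an established human liver cancer line that still secretes much of what hepatocytes release into plasma. The genes described are all those with a mean of at least 1 TPM over the 6 Huh-7 libraries, 9761 of the 60664 genes in the table. TPM is the transcript abundance per length, scaled to a fixed total in each library. The control group, with the genotype label WT, was transfected with si-NC, and the other group, labelled CENPU knockdown, with si-CENPU, with 3 libraries in each. Both groups shared 1 culture medium, DMEM containing fetal bovine serum and antibiotics. The sources used here give neither the siRNA sequence, nor its dose, nor the time between transfection and harvest, nor do they say whether the 3 libraries of a group came from separate cultures. P-values therefore measure only the spread between these libraries, which may be technical. The study holds 12 libraries in all, and the other 6 are the same treatments in the hepatocellular carcinoma line MHCC-97H.

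The protein made from CENPU is part of the inner kinetochore, in the constitutive centromere-associated network, which sits on centromeric chromatin and holds the outer kinetochore, to which spindle microtubules attach. Within that network it belongs to the CENP-O class of proteins, and it recruits the mitotic kinase PLK1 to kinetochores. E2F factors bind promoters of genes for S phase and mitosis and switch them on (E2F1) or off (E2F6). Centromere genes are made mostly in dividing cells, and cultured hepatoma lines divide continuously.

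The libraries carried RNA of liver cells. All 15 hepatocyte markers averaged at least 1 TPM, with sums of 7850 to 8380 TPM in si-NC and 7370 to 8295 TPM in si-CENPU, against 0.74 to 1.98 TPM in MHCC-97H. The 6 endothelial markers summed to 0.01 to 0.36 TPM, with KDR, TEK and CLEC4G at 0 in all 6 libraries, and the 4 red cell markers summed to 0.32 to 0.63 TPM. Of the 7 fibroblast and stellate markers only COL3A1 reached 1 TPM, and 3 of the 6 immune markers in the table did, CD68, CD14 and LYZ. Of the 6 markers of bile duct cells 3 were above that level, with sums of 191.1 to 229.8 TPM in si-NC and 194.1 to 220.4 TPM in si-CENPU. No marker sum separated the groups except those of endothelial cells and red cells, both near 0. Library depth is unknown, since TPM does not retain it, so values carry neither counting intervals nor detection limits. Between 18639 and 20900 genes per library were above 0. Replicate 1 of si-NC stood apart. Its mean correlation with the other Huh-7 libraries was 0.957, against 0.969 to 0.973 for the rest, and 1.56% of its TPM came from mitochondrially encoded genes, against 2.28% to 3.5%. Among the 3367 genes with a mean of at least 10 TPM, 101 lay more than 1 log2 unit below both other libraries of its group, against 6 to 13 in the other 5 libraries. Leaving it out moved the median change of all genes by -0.09 log2 units, from 0.016 to -0.074. Single genes whose call depends on it are given with and without it, and the effect on gene lists is given where all lists are summed up.

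CENPU itself was listed near 0 in every library and lay below the 1 TPM limit of the gene-wide fit. Control libraries read 0.56, 0.84 and 0.53 TPM, and si-CENPU libraries 0.17, 0.11 and 0.45 TPM. Each si-CENPU library was below each control, with replicate 3 closest to them. The difference of means was -0.41 in log2(TPM + 1), a scale that makes changes at low levels look smaller than they are, and -1.22 with a pseudocount of 0.1. The exact two-sided permutation p was 0.1, the smallest that 3 against 3 libraries can give. The gene (ENSG00000151725) spans chromosome 4, 184694618 to 184734133, on the minus strand of GRCh38, and PRIMPOL overlaps it on the other strand. Whether the authors' quantification used strand is not given in the sources used here. Reads of overlapping genes on either strand therefore cannot be told apart. In bulk RNA, fewer cells that express a gene and less RNA per cell cannot be told apart either.

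E2F1 was listed at 0.23, 0.18 and 0.32 TPM in si-NC and at 0.13, 0.06 and 0.04 TPM in si-CENPU. All 3 si-CENPU values were under all 3 controls, at levels where an estimate rests on few reads. The difference was -0.21 on the log2(TPM + 1) scale, with an exact two-sided permutation p of 0.1, again the smallest possible. E2F6 read 0.69, 0.98 and 0.86 TPM in si-NC and 0.92, 0.71 and 1.44 TPM in si-CENPU, so its groups overlapped, and its exact permutation p was 0.6.

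The promoter windows of CENPU, E2F1 and MAP2K4 are shown because the first is the gene targeted, the second is a factor whose own promoter is a known E2F target, and the third is the single gene called in Huh-7. Each is the 250 bases before the RefSeq gene start, on the gene's own strand, from assembly GRCh38.p14. Capitals mark matches to the E2F letters TTTCCCGC, TTTCGCGC, TTTGCCGC or TTTGGCGC on either strand.
CENPU (chr4:184734097-184734346, minus strand): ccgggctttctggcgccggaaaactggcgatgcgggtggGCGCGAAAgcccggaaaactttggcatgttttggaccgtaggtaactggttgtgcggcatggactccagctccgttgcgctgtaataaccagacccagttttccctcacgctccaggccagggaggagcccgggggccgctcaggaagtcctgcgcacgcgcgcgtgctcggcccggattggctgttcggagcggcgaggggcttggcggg
E2F1 (chr20:33686386-33686635, minus strand): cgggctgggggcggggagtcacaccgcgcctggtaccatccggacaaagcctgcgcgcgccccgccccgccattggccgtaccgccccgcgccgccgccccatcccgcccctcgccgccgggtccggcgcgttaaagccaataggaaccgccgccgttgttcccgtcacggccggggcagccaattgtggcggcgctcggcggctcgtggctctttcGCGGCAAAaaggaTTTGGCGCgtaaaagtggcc
MAP2K4 (chr17:12020627-12020876, plus strand): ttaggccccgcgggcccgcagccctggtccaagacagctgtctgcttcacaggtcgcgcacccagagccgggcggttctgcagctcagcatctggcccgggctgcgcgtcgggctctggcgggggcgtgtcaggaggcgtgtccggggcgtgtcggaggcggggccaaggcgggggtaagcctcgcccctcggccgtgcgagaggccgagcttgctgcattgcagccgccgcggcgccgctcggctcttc
CENPU held 1 match, starting 211 bases before the gene start, E2F1 held 2, starting 33 and 20 bases before it, and these letters were not in the MAP2K4 window. Over all 27305 RefSeq windows of this length, 761 (2.79%) held a match. Among the 7072 Huh-7 genes with a window, 328 (4.64%) had one, and their median change was 0.011, against 0.017 for the other 6744. At an unadjusted p below 0.05, 7 of the 328 were higher after si-CENPU (2.13%) and 4 were lower (1.22%), against 3.01% and 2.15% of the rest. The AP-1 letters TGANTCA, which read the same on both strands, were in 1801 of all windows (6.6%) and in 267 of the Huh-7 genes (3.78%). The median change of those 267 genes was 0.025, with 5 higher and 6 lower at an unadjusted p below 0.05, against a median of 0.016 without the letters. That is 1.87% and 2.25% of them, against 3.01% and 2.1% of the genes without the letters. Genes with and without either motif thus had almost equal medians, and a match is a description of the letters, not a bound site.

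**Figure D1:**
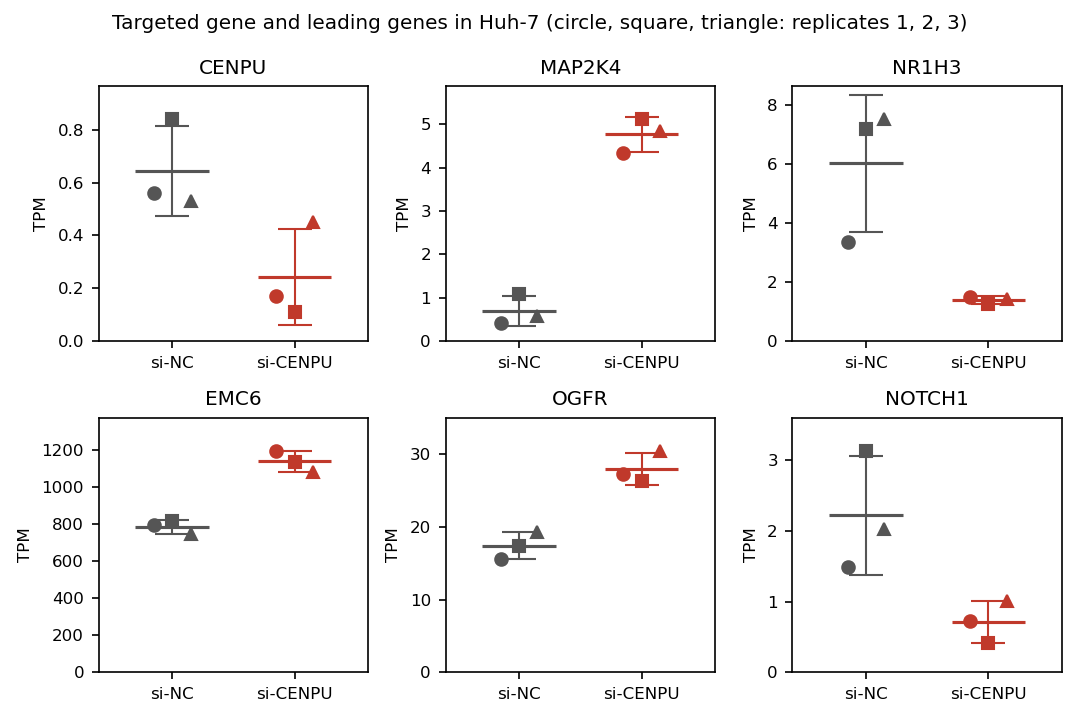
TPM (vertical axes, starting at 0) of CENPU and 5 leading genes in the 3 si-NC (grey) and 3 si-CENPU (red) libraries of Huh-7, with circles, squares and triangles for replicates 1, 2 and 3, and lines for the mean and SD. The 2 groups do not overlap in any panel, and only MAP2K4 passed the gene-wide test.

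The changes of 53.6% of the genes were positive. Across the 9761 genes, 1 rose and 0 fell after si-CENPU by limma at a Benjamini-Hochberg adjusted p below 0.05, which is 0.0102% of the genes higher and 0.0% lower. At an unadjusted p below 0.05, 278 were higher (2.85%) and 213 lower (2.18%), together 491 genes (5.03%), where 488.1 would be listed if no gene changed. The 3 si-CENPU values did not overlap the 3 si-NC values in 371 genes that were higher (3.8%) and 365 that were lower (3.74%). Changes were small for most genes. The median was 0.016 log2(TPM + 1) units, the quartiles were -0.095 and 0.14, and the median SE of a change was 0.183. Beyond 1 unit there were 68 genes higher and 84 lower, of which 21 and 25 had an unadjusted p below 0.05. Without si-NC replicate 1 the unadjusted counts became 214 higher and 382 lower, the median of all genes moved to -0.074, and 2 genes were called higher and 3 lower. The called counts also moved with the scaling, to 1 higher and 1 lower with trimmed-mean scaling, 3 and 3 with quantile normalization and 2 and 1 with a correction for GC content.

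**Figure D2:**
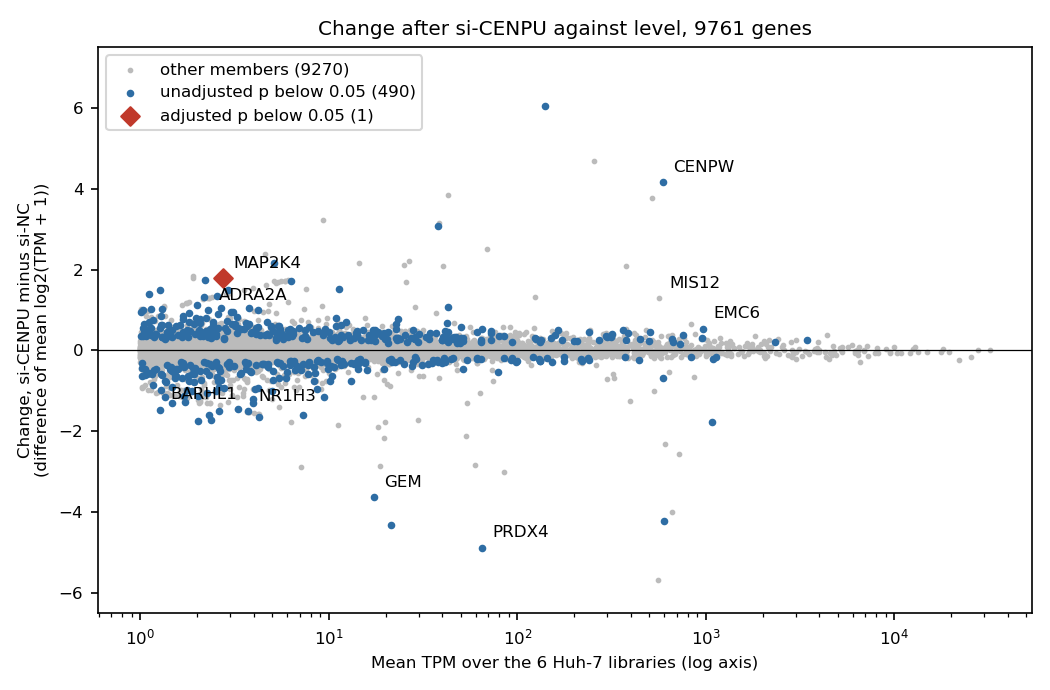
Each point is 1 of the 9761 Huh-7 genes, placed by its mean TPM over the 6 libraries (horizontal, log axis) and its change after si-CENPU (vertical, difference of mean log2(TPM + 1)). MAP2K4 (red diamond, 1.79) is the called gene, and the widest changes, such as CENPW and PRDX4, belong to genes whose replicate libraries differed most.

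MAP2K4 (ENSG00000065559; chromosome 17, 12020824 to 12143830, plus strand) was the gene that rose. It encodes MKK4, a dual-specificity kinase that phosphorylates the stress kinases JNK and p38. Controls read 0.42, 1.08 and 0.57 TPM, and si-CENPU libraries 4.33, 5.12 and 4.86 TPM. Every si-CENPU library was far above every control, while the controls, near the 1 TPM limit, ran from 0.42 to 1.08 TPM. Means were 0.69 ± 0.346 TPM and 4.77 ± 0.403 TPM (SD over 3 libraries), a ratio of 6.91 on the TPM scale. The change was 1.79 ± 0.166 (SE) on the log2(TPM + 1) scale, with a limma adjusted p of 0.00353. Its si-NC mean was under 1 TPM, so it was 1 of 265 genes that entered the fit only through the si-CENPU group, and a gene that enters this way has to differ between the means. No other protein-coding gene overlaps it in GENCODE, and genes of other types were not looked at for overlap. In MHCC-97H the controls of MAP2K4 read 1.25, 1.09 and 0.72 TPM, and its si-CENPU libraries 0.76, 0.55 and 0.55 TPM, a change of -0.31 with an unadjusted limma p of 0.087. The difference between the 2 responses, MHCC-97H minus Huh-7, was -2.1 ± 0.235 (SE), with a limma adjusted p of 0.0223, and MAP2K4 was the only gene called for that difference in this fit. That call was lost in 7 of the 12 fits that left out 1 library, with a pseudocount of 0.1 (adjusted p 0.131), with no filter (0.0577) and with a replicate block (0.0919). Its adjusted p in Huh-7 ran from 0.00191 to 0.0364 when each of the 12 libraries was left out in turn, and was 0.309 in a fit of the 6 Huh-7 libraries alone. Over 27 alternatives that tested it, it was called in 24, with adjusted p from 2.01e-05 to 0.999.

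No other gene of its pathway passed the test. Of 37 kinases and scaffolds of the JNK and p38 cascade, 23 were tested, 1 was called and no other had an unadjusted p below 0.05, with a median change of -0.01 against 0.016 for all genes. Groups did not overlap in 2 of the 23 listed higher and 4 listed lower, against 3.8% and 3.74% of all genes. GADD45B, the most abundant of the list, read 87.84, 83.02 and 87.57 TPM in si-NC. Its si-CENPU libraries read 88.29, 99.79 and 98.44 TPM (change 0.15, unadjusted limma p 0.0679). MAP2K7, the other kinase that activates JNK, read 9.09, 13.08 and 12.81 TPM in si-NC and 13.16, 11.92 and 14.68 TPM in si-CENPU, which overlap. The JNK genes were near the limit, MAPK8 at 0.11 to 1.29 TPM and MAPK9 at 0.51 to 1.34 TPM over the 6 libraries. The p38 kinase MAPK14 read 0.66, 1.73 and 1.23 TPM in si-NC and 0.86, 0.57 and 0.95 TPM in si-CENPU. SPAG9, a scaffold that binds JNK and MKK4, read 3.16, 3.35 and 2.42 TPM in si-NC and 1.65, 1.28 and 2.37 TPM in si-CENPU. Its groups did not overlap, by a small margin, with a change of -0.54 and an unadjusted limma p of 0.068. JUN, the transcription factor that JNK phosphorylates, was listed at 3 TPM in 1 control and at 0 in the other 5 libraries, so its level could not be compared.

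No gene downstream of the stress kinases was called. Of 17 tested AP-1 and immediate-early genes, 1, IER2, had an unadjusted p below 0.05, a share of the list near the 5.03% of all genes. A positive change was listed for 14 of the 17 (82.4%), against 53.6% of all genes, with a median of 0.13. IER2, an immediate-early gene, read 39.61, 45.72 and 47.33 TPM in si-NC and 52.21, 51.17 and 53.82 TPM in si-CENPU. All si-CENPU values were above all controls, with a change of 0.24 (unadjusted p 0.00985, adjusted p 0.848, limma). Without si-NC replicate 1 the median of the 17 genes was 0.017, and that of all genes was -0.074. JUND, the most abundant of them, averaged 209.4 ± 2.41 TPM in controls and 197.6 ± 35.1 TPM after si-CENPU. Among 9 tested MAP kinase phosphatases and 14 tested ERK kinases and regulators, 0 passed an unadjusted p of 0.05. Their medians were 0.085 and 0.028. DUSP9, the most abundant phosphatase, read 502.6 to 548.9 TPM in si-NC and 407.1 to 541.3 TPM in si-CENPU, and MAP2K2, which activates ERK, read 148.3 to 163.2 TPM and 132.1 to 147.5 TPM, 2 ranges that did not overlap (change -0.16, unadjusted limma p 0.0633).

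NR1H3 had the smallest p of any gene listed lower, but missed the threshold. It encodes LXR alpha, a nuclear receptor that senses oxysterols and switches on cholesterol efflux and fatty acid synthesis in the liver. It lies on chromosome 11, 47248300 to 47269032, plus strand, and ACP2 overlaps it on the other strand. Controls read 3.35, 7.2 and 7.52 TPM, and si-CENPU libraries 1.5, 1.24 and 1.41 TPM. The si-CENPU libraries sat close together below all controls, and replicate 1 was the lowest control. The change was -1.50 ± 0.228 (SE), with a limma adjusted p of 0.201 and 0.000921 without si-NC replicate 1. Trimmed-mean scaling (0.00945), quantile normalization (0.00198), GC correction (0.0245) and library weights (0.00317) also put its adjusted p below 0.05, within a range of 0.000921 to 0.999 over all alternatives. In MHCC-97H the change of NR1H3 was 0.15, with an unadjusted limma p of 0.516.

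Receptors and targets of this kind gave no common direction. Of 15 tested genes of the LXR and FXR list, 9 had a positive change, the median was 0.063, and 2 had an unadjusted p below 0.05, both lower, NR1H3 and ABCA1. ABCA1, the cholesterol efflux pump, read 1.47, 1.14 and 1.76 TPM in si-NC and 1.13, 0 and 1.13 TPM in si-CENPU, with its change of -0.56 resting on a library listed at 0. NR1H2, which encodes LXR beta, stood at 48.01 ± 1.27 TPM and 46.99 ± 2.17 TPM, and RXRA, the partner of both receptors, at 5.06 ± 1.003 TPM and 4.99 ± 0.377 TPM. SREBF1, a lipogenic transcription factor and LXR target, read 26.89 to 33.61 TPM in si-NC and 28.71 to 32.85 TPM in si-CENPU. LPCAT3, a phospholipid acyltransferase, read 10.21 to 14.36 TPM and 12.05 to 16.38 TPM. The targets ABCG1 and MYLIP were below the limit, at means of 0.083 and 0.277 TPM in si-NC. The si-CENPU libraries of NR1H3 thus lay below the controls. Those of ABCA1 did too, but only by 1.13 against 1.14 TPM. ABCA1 averaged under 1 TPM in si-CENPU and entered the fit only through the si-NC group, so its means had to differ. The si-CENPU libraries of the named receptors and targets SREBF1, LPCAT3, NR1H2 and RXRA overlapped the controls.

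The 9 protein-coding genes that followed MAP2K4 by p among those listed higher, all without overlap of the groups, failed the adjustment. EMC6, a small subunit of the ER membrane complex that inserts membrane proteins, read 793.64, 816.11 and 744.94 TPM in si-NC and 1196.4, 1138.1 and 1081.4 TPM in si-CENPU. The 2 groups were well apart, at 784.9 ± 36.4 TPM and 1139 ± 57.5 TPM, and the change was 0.54 ± 0.088 (SE) with a limma adjusted p of 0.232. EMC6 is on chromosome 17, 3668815 to 3669668, plus strand, and P2RX5-TAX1BP3 overlaps it on the other strand. OGFR, the receptor of opioid growth factor, read 15.56, 17.42 and 19.29 TPM in si-NC and 27.32, 26.24 and 30.46 TPM in si-CENPU. OGFR (chromosome 20, 62804835 to 62814000, plus strand) had a ratio of means of 1.61, an adjusted p of 0.232, and 0.0245 after GC correction, with 0.0245 to 0.999 over the alternatives. MED11, a subunit of the Mediator head, read 7.24, 7.93 and 7.88 TPM in si-NC and 14.32, 14.71 and 13.31 TPM in si-CENPU. Its means had a ratio of 1.84 with no library near the other group, and its adjusted p was 0.419. MED11 (chromosome 17, 4731428 to 4733610, plus strand) is overlapped by CXCL16 on the other strand. ADRA2A, the alpha-2A adrenergic receptor (chromosome 10, 111077163 to 111080907, plus strand), read 0.74, 1.57 and 1.28 TPM in si-NC and 2.69, 3.07 and 4.36 TPM in si-CENPU. Its change of 0.99 had an adjusted p of 0.232, and 0.00301 with quantile normalization, with 0.00301 to 0.999 over the alternatives.

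TESC, a calcium-binding protein, read 54.24, 48.56 and 51.99 TPM in si-NC and 65.25, 72.81 and 73.91 TPM in si-CENPU, a change of 0.45 with an adjusted p of 0.281 by limma. TMEM216, a protein of the ciliary transition zone, read 31.73, 30.15 and 31.66 TPM in si-NC and 38.93, 47.16 and 41.91 TPM in si-CENPU. PCNX3, a membrane protein of the pecanex family, read 10.7, 13.4 and 13.06 TPM in si-NC and 19.78, 16.54 and 17.32 TPM in si-CENPU. CAB39L, related to the scaffold of the LKB1 kinase complex, was under 1 TPM in each control, at 0.58, 0.88 and 0.36 TPM in si-NC and 1.77, 1.23 and 2.2 TPM in si-CENPU. TMEM216 and PCNX3 had changes of 0.44 and 0.50 and CAB39L one of 0.76, each with an adjusted p of 0.571. The unnamed gene ENSG00000285629 (minus strand of chromosome 1, 6159430 to 6197757) read 1.08, 0 and 0.48 TPM in si-NC and 3.95, 3.3 and 4.47 TPM in si-CENPU. It overlaps RPL22 and CHD5 on the same strand, so its reads cannot be told apart from theirs here. Like MAP2K4, CAB39L and this gene entered the fit only through the si-CENPU group. A pair of long non-coding genes outside that rule, chosen after their values were seen, showed a like separation. NIHCOLE read 0.86, 0.47 and 0.77 TPM in si-NC and 2.28, 1.93 and 6.81 TPM in si-CENPU, and EMSY-DT read 1.72, 1.17 and 1.92 TPM and 2.95, 3.68 and 3.07 TPM, with adjusted p of 0.571 and 0.565. NIHCOLE, but not EMSY-DT, also entered the fit only through the si-CENPU group, so its means had to differ.

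Of the 10 protein-coding genes with the smallest p among those listed lower, all without overlap of the groups, 0 passed the adjustment. NOTCH1, DHX40, BARHL1 and SRGAP2B among them averaged under 1 TPM in si-CENPU. They belong to the 231 genes that entered the fit only through the si-NC group, and such a gene has to differ between the means. NOTCH1, a receptor for contact signals between cells (minus strand of chromosome 9, 136494433 to 136545786), had controls at 1.49, 3.13 and 2.03 TPM and si-CENPU libraries at 0.72, 0.41 and 1.01 TPM. Its highest si-CENPU library was below its lowest control, and its change of -0.89 had a limma adjusted p of 0.571, and 0.0136 with quantile normalization, with 0.0136 to 1 over the alternatives. DHX40, an RNA helicase of the DEAH family (chromosome 17, 59565525 to 59608345, plus strand), read 2.79, 2.63 and 2.58 TPM in si-NC and 0.49, 1.39 and 0.31 TPM in si-CENPU, a change of -1.13. Controls of DHX40 were nearly equal, and the si-CENPU libraries spread from 0.31 to 1.39 TPM. BARHL1, a homeobox factor of neural tissue (chromosome 9, 132582185 to 132590266, plus strand), read 2.13, 1.16 and 3.82 TPM in si-NC and 0, 0.55 and 0 TPM in si-CENPU. With 2 si-CENPU libraries listed at 0, which can be failed estimates, its change of -1.46 had an adjusted p of 0.241, and 0.0453 without si-NC replicate 2, with 0.0453 to 0.999 over the alternatives.

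DIPK1B was the most abundant of the leading genes listed lower, at 90.72, 96.87 and 91.91 TPM in si-NC and 72.93, 57.49 and 61.66 TPM in si-CENPU. DIPK1B encodes a protein of the ER related to kinases, on chromosome 9, 136712570 to 136724050, plus strand. Its change was -0.54 with an adjusted p of 0.571. ATG13, a subunit of the kinase complex that starts autophagy, read 6.01, 5.25 and 6.98 TPM in si-NC and 3.61, 3.98 and 4.38 TPM in si-CENPU, and HARBI1 overlaps it on the other strand. ADIRF, a gene first linked to fat cells, read 11.52, 12.38 and 14.59 TPM in si-NC and 6.21, 10.16 and 5.89 TPM in si-CENPU. ADIRF is overlapped by MMRN2 on the other strand. Changes of ATG13 and ADIRF were -0.50 and -0.74, with adjusted p of 0.729 and 0.669. ECM1, a secreted matrix protein, read 2.27, 2.37 and 4 TPM in si-NC and 1.36, 1.68 and 0.93 TPM in si-CENPU. SRGAP2B, a human-specific partial copy of SRGAP2, read 1.9, 1.46 and 2.66 TPM in si-NC and 1, 0.49 and 0.17 TPM in si-CENPU, and its reads are hard to assign among near-identical copies. ENSG00000285762, which overlaps DDT and DDTL, read 20.3, 15.59 and 14.33 TPM in si-NC and 9.64, 9.96 and 8.76 TPM in si-CENPU. Just after these by p stood CRBN, the substrate receptor of a cullin-4 ubiquitin ligase and the target of thalidomide. CRBN read 2.17, 2.4 and 2.59 TPM in si-NC and 1.34, 1.09 and 1.11 TPM in si-CENPU, with an adjusted p of 0.751, and 0.0049 with quantile normalization.

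Inner kinetochore genes, the partners of CENPU, were mostly too low to test. Of 22 genes of the inner kinetochore and of CENP-A loading, 6 reached the limit, 0 were called and 2 had an unadjusted p below 0.05, OIP5 and CENPW, both higher. Their median change was 0.571, the highest of the 51 lists described, over genes that mostly had a large spread, and it was 0.116 without si-CENPU replicate 2. OIP5, which loads CENP-A onto centromeres, read 1.77, 2.37 and 2.98 TPM in si-NC and 3.1, 8.26 and 6.86 TPM in si-CENPU. Its groups did not overlap, and its change of 1.002 had an adjusted p of 0.832. CENPO, a direct partner of CENPU, read 1.63, 3.18 and 3.68 TPM in si-NC and 2.37, 1.67 and 2.17 TPM in si-CENPU. CENPA, the centromeric histone, was listed at 0 to 0.17 TPM in 5 libraries and at 7.75 TPM in si-CENPU replicate 2. CENPA entered the fit only through the si-CENPU group, so its means had to differ. KNTC1, a kinetochore protein of the RZZ complex, lay below the limit at 0, 0.03 and 0.02 TPM in si-NC and 0.56, 1.29 and 0.2 TPM in si-CENPU.

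No gene of mitosis or the cell cycle was called. The proliferation markers MKI67 and TOP2A read 1.72 to 4.55 and 1.67 to 2.31 TPM in si-NC and 2.4 to 3.94 and 1.42 to 2.65 TPM in si-CENPU. Of 15 tested mitotic kinases, passengers and spindle motors 1 had an unadjusted p below 0.05, with a median of -0.056, and of 17 genes of the anaphase-promoting complex, 14 of cohesin and condensin and 16 of tubulins and microtubule proteins 0 did. Their medians were 0.096, -0.011 and -0.012. AURKB, the Aurora kinase of the chromosome passenger complex, read 74.26 to 92.48 TPM in si-NC and 72.4 to 97.6 TPM in si-CENPU, and UBE2C, the ubiquitin carrier of the anaphase-promoting complex, 165.9 to 176.2 and 162 to 216.1 TPM. PLK3, a stress kinase that is also a p53 target, read 5.15, 6.66 and 7.25 TPM in si-NC and 7.62, 7.72 and 8.74 TPM in si-CENPU, without overlap (change 0.31, adjusted limma p 0.969). It was the 1 gene at an unadjusted p below 0.05 among both the mitotic kinases and the 13 tested p53 targets, whose median was 0.045. Among 12 tested E2F, RB and G1 regulators 0 passed an unadjusted p of 0.05, with a median of 0.12. MYBL2, an E2F target, read 40.27 to 58.36 TPM in si-NC and 46.02 to 51.26 TPM in si-CENPU, and CDKN2C, an inhibitor of CDK4 and CDK6, 1.36 to 1.87 and 1.89 to 2.34 TPM, 2 ranges that did not overlap by a small margin. Of 15 tested genes of homologous recombination and DNA damage signalling 1 had an unadjusted p below 0.05, MUS81, a nuclease that cuts joint DNA molecules, at 11.32 to 12.43 TPM in si-NC and 12.92 to 15.02 TPM in si-CENPU, without overlap. CHEK1, a checkpoint kinase, read 1.28, 1.84 and 1.22 TPM in si-NC and 1.05, 0.74 and 0.97 TPM in si-CENPU, also without overlap (unadjusted limma p 0.114). CHEK1 averaged 0.92 TPM in si-CENPU and entered the fit only through the si-NC group, so its means had to differ. Of 23 tested histone genes, with a median of 0.017, 1 had an unadjusted p below 0.05, H4C8, which read 7.06, 5.93 and 3.61 TPM in si-NC and 4.97, 1.3 and 1.55 TPM in si-CENPU.

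**Figure D3:**
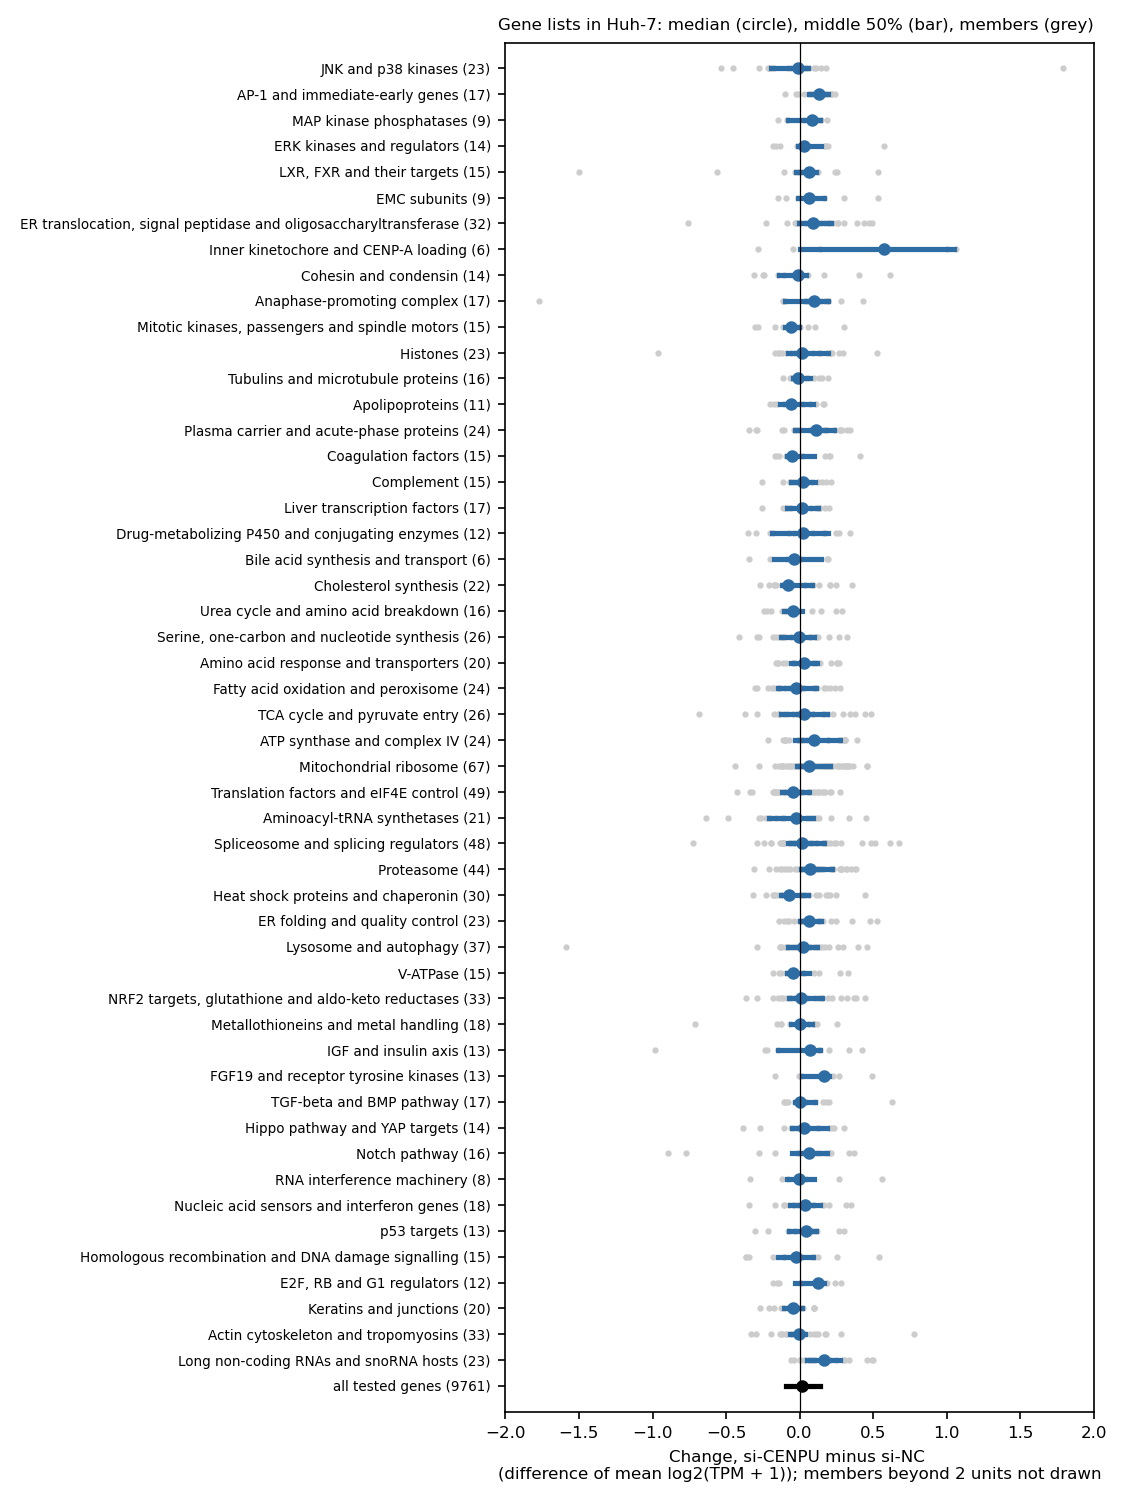
Change after si-CENPU in Huh-7 (horizontal, difference of mean log2(TPM + 1)) for the tested members of 51 gene lists, with their number in brackets, the median as a circle, the quartiles as the ends of a bar and single members in grey. List medians lie between -0.078 and 0.571, 45 of them within 0.1 of 0, and MAP2K4 stands alone at the right of the first row.

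Over all 51 lists, 1056 of 1428 genes in the table were tested, 1 rose and 0 fell by the limma test, and 32 were higher and 16 lower at an unadjusted p below 0.05. That is 4.55% of the tested list genes, against 5.03% of all genes. In 20 lists no gene had an unadjusted p below 0.05, and 31 lists had a positive median. Without si-NC replicate 1 all 51 medians were lower, and 24 of the 31 were negative. Set against the median of all genes in the same fit, 29 lists were above it with all libraries, 17 of them were above it also without that library, and 12 were then below it. Among those 12 were the ERK kinases (median 0.028 with it and -0.154 without), the ER membrane complex (0.064 and -0.139), ER translocation (0.094 and -0.11), ER folding (0.062 and -0.142), p53 targets (0.045 and -0.137) and the TCA cycle (0.032 and -0.116). Medians of the MAP kinase phosphatases (0.085 and -0.055) and of the E2F, RB and G1 regulators (0.12 and -0.039) also turned negative, but stayed above that of all genes.

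EMC3, EMC8 and EMC10, which sit in 1 complex with EMC6, had overlapping groups. Of 9 tested subunits of the ER membrane complex 1, EMC6, had an unadjusted p below 0.05, and the median was 0.064. EMC10 read 9.42 to 10.54 TPM in si-NC and 8.46 to 10.46 TPM in si-CENPU, EMC8 28.31 to 33.19 and 28.43 to 38.79 TPM, and EMC3 2.12 to 8.17 and 4.32 to 5.02 TPM. Of 32 tested genes of the translocon, signal peptidase and oligosaccharyltransferase, 22 had a positive change, the median was 0.094, and 3 had an unadjusted p below 0.05. SSR2, of the translocon-associated complex, read 313.05, 353.97 and 366.06 TPM in si-NC and 364.75, 452.5 and 422.25 TPM in si-CENPU. DAD1, an oligosaccharyltransferase subunit, read 284.15, 371.14 and 317.98 TPM in si-NC and 326.24, 546.67 and 467.1 TPM in si-CENPU. SPCS1, of the signal peptidase, read 6.07, 13.88 and 12.09 TPM in si-NC and 9.87, 3.43 and 4.9 TPM in si-CENPU. SSR2 and DAD1 overlapped through si-CENPU replicate 1, and SPCS1 through that library and si-NC replicate 1.

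Of the ER folding genes, CRELD2 and GANAB had groups without overlap, as did 7.54% of all genes. CRELD2, an ER protein of the unfolded protein response, read 10.94, 11.29 and 12.63 TPM in si-NC and 14.62, 16.95 and 18.43 TPM in si-CENPU. GANAB, the glucosidase II subunit that trims glycans, read 13.39, 21.07 and 21.6 TPM in si-NC and 26.32, 24.92 and 29.34 TPM in si-CENPU. Their changes were 0.48 and 0.53, with adjusted limma p of 0.832 and 0.965, and they were the 2 of 23 tested genes at an unadjusted p below 0.05 (median 0.062). Of 30 tested heat shock proteins and chaperonin subunits 0 passed an unadjusted p of 0.05. Their median was -0.071, and -0.224 without si-NC replicate 1, where that of all genes was -0.074.

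No gene of the secreted liver proteins was called. APOA1, the main protein of HDL, read 4647.36, 4323.16 and 4886.83 TPM in si-NC and 3994.14, 4266.2 and 4005.01 TPM in si-CENPU, without overlap (change -0.17, unadjusted limma p 0.0587). APOE stood at 4840 ± 231 TPM and 4496 ± 329 TPM. Of 11 tested apolipoproteins 0 passed an unadjusted p of 0.05 (median -0.06), and none of 15 coagulation factors (median -0.054) or 15 complement genes (median 0.021) did. Of 24 plasma carrier and acute-phase proteins, with a median of 0.11, 2 did. HP, which binds free haemoglobin, read 2.16, 2.54 and 2.79 TPM in si-NC and 1.82, 1.89 and 1.85 TPM in si-CENPU, and ORM2, an acute-phase protein, 35.17 to 44.3 and 40.7 to 62.81 TPM. ALB read 53.39, 104.17 and 94.82 TPM in si-NC and 88.3, 57.48 and 96.64 TPM in si-CENPU, and AFP, the fetal counterpart of albumin, 213 to 388.7 and 211.7 to 323.2 TPM. ALB was low in replicate 1 of si-NC and in replicate 2 of si-CENPU, so it differed more between replicates than between groups. Of 17 tested liver transcription factors 0 passed an unadjusted p of 0.05 (median 0.017).

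Lipid, bile acid and drug metabolism gave single genes at an unadjusted p below 0.05. Of 12 tested drug-metabolizing enzymes (median 0.024) it was SULT1A1, a sulfotransferase, at 9.62 to 11.1 TPM in si-NC and 10.58 to 13.53 TPM in si-CENPU. SLC27A5, which activates bile acids for conjugation, was the 1 of 6 bile acid genes (median -0.04), at 11.42 to 16.97 and 8.97 to 12.69 TPM. PMVK, a kinase of the mevalonate pathway, was the 1 of 22 cholesterol synthesis genes, at 37.65 to 43.3 and 42.81 to 48.57 TPM. Cholesterol synthesis had the lowest median of all lists, -0.078, and -0.208 without si-NC replicate 1, where that of all genes was -0.074. CETP, the plasma lipid transfer protein and an LXR target, was chosen after its values were seen. It was listed at 0, 0 and 6.15 TPM in si-NC and at 12.47, 5.23 and 6.7 TPM in si-CENPU, and its change of 2.17 had a limma adjusted p of 0.832 and 0.0014 without si-NC replicate 3.

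In central metabolism, 3 of 26 tested genes of the TCA cycle had an unadjusted p below 0.05 (median 0.032), IDH3A and SUCLA2 among them. IDH3A, of the NAD-linked isocitrate dehydrogenase, read 1.97, 2.37 and 1.73 TPM in si-NC and 1.25, 1.14 and 1.61 TPM in si-CENPU, and SUCLA2, of succinyl-CoA synthetase, 4.54, 9.76 and 8.71 TPM and 3.51, 4.87 and 4.24 TPM. IDH3A was lower in every si-CENPU library, with an adjusted limma p of 0.969. Of 16 genes of the urea cycle and amino acid breakdown (median -0.044), 26 of serine, one-carbon and nucleotide synthesis (median -0.001) and 24 of fatty acid oxidation and the peroxisome (median -0.024) 0 passed an unadjusted p of 0.05. Of 20 amino acid response genes and transporters 2 did (median 0.032). TRIB3, a pseudokinase induced by ATF4, read 54.02, 59.75 and 61.79 TPM in si-NC and 72.77, 65.97 and 71.54 TPM in si-CENPU. EIF4EBP1, the repressor of eIF4E, read 901.43, 854.42 and 888.16 TPM and 802.09, 788.65 and 771.79 TPM. Both were without overlap, with changes of 0.26 and -0.16.

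No mitochondrial ribosome or proteasome gene was called. Of 67 tested mitochondrial ribosomal proteins 44 had a positive change (65.7%, against 53.6% of all genes) and 3 an unadjusted p below 0.05, MRPL21, MRPL17 and MRPL36, with a median of 0.064 that became -0.017 without si-NC replicate 1. MRPL21 read 166.96, 222.91 and 212.77 TPM in si-NC and 235.95, 316.49 and 277.56 TPM in si-CENPU. Of 44 tested proteasome genes 34 had a positive change (77.3%) and 2 an unadjusted p below 0.05, PSMD8 and PSMB5, with a median of 0.068 that became -0.051 without that library. PSMD8, of the regulatory lid, read 589.82, 643.75 and 627.75 TPM in si-NC and 673.53, 730.26 and 762.67 TPM in si-CENPU, and PSMB5, the chymotrypsin-like catalytic subunit, 590.24, 593.2 and 593.73 TPM and 610.99, 843.58 and 738.77 TPM. Of 24 tested genes of ATP synthase and complex IV (median 0.097) 1 had an unadjusted p below 0.05, ATP5MG, at 378.2 to 422.4 TPM in si-NC and 398.4 to 575.7 TPM in si-CENPU. The median of the ATP synthase and complex IV genes was 0.016 without si-NC replicate 1. Without that library the median of all genes was lower by a like amount, and all 3 list medians were above it with and without the library.

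Translation and splicing genes did not separate as groups. Of 49 tested translation factors (median -0.044) 2 had an unadjusted p below 0.05, EIF4EBP1 and MKNK2, a kinase of eIF4E, which read 22.63, 28.08 and 27.06 TPM in si-NC and 33.1, 30.23 and 31.28 TPM in si-CENPU. Of 21 aminoacyl-tRNA synthetases 0 did (median -0.026). Of 48 splicing genes (median 0.019) 2 did, SNRPF and SRSF11. SRSF11 read 9.34, 7.09 and 3.65 TPM in si-NC and 2.89, 3.28 and 4.2 TPM in si-CENPU. Of 23 long non-coding RNAs and snoRNA hosts 21 had a positive change, and 2 had an unadjusted p below 0.05, SNHG29 and SNHG6. The list median was 0.17, and 0.001 without si-NC replicate 1, where that of all genes was -0.074. SNHG6 read 98.73, 165.08 and 145.15 TPM in si-NC and 152.58, 216.46 and 202.94 TPM in si-CENPU.

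Stress, lysosome and metal genes likewise gave few members. Of 33 tested NRF2 targets and redox enzymes (median 0.012) 2 had an unadjusted p below 0.05, PRDX4, described below, and NQO1, a quinone reductase, at 18.99, 25.97 and 20.74 TPM in si-NC and 24.09, 32.91 and 28.89 TPM in si-CENPU. Of 37 genes of lysosome and autophagy (median 0.026) 2 did, ATG9A and ATG7. ATG7, which activates the autophagy conjugation systems, read 10.03, 2.48 and 0.47 TPM in si-NC and 0.2, 0.31 and 0.32 TPM in si-CENPU, so its change of -1.59 rested on controls that spread widely. ATG7 also entered the fit only through the si-NC group, so its means had to differ. Of 15 V-ATPase subunits (median -0.048) and 18 metallothioneins and metal handling genes (median 0.002) 0 did. MT1A, a metallothionein, read 36.17, 37.02 and 42.56 TPM and 44.28, 49.45 and 44.76 TPM, without overlap, with an unadjusted limma p of 0.123.

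Signalling lists had 1 to 3 genes each at an unadjusted p below 0.05, or none. Of 16 tested Notch pathway genes (median 0.062) there were 3. Besides NOTCH1 these were RFNG, a glycosyltransferase that modifies Notch, at 23.31, 24.58 and 23.65 TPM in si-NC and 19.48, 18.41 and 20.58 TPM in si-CENPU, and NOTCH3, at 0.93, 1.04 and 0.49 TPM and 1.23, 1.35 and 1.4 TPM. NOTCH1 and NOTCH3 were listed in opposite directions. NOTCH1 entered the fit only through the si-NC group and NOTCH3 only through the si-CENPU group. Each thus had to differ between the means. The Notch targets HES1 (5.08 to 8.02 and 6.06 to 9.42 TPM) and HES4 (227.3 to 238.1 and 181.4 to 330.2 TPM) overlapped. Of 13 genes of FGF19 and the receptor tyrosine kinases 11 had a positive change. Their median was 0.16, and 0.001 without si-NC replicate 1, where that of all genes was -0.074. FGFR3 was the 1 at an unadjusted p below 0.05, at 10.4, 16.98 and 15.4 TPM in si-NC and 19.49, 18.68 and 22.32 TPM in si-CENPU. FGF19, the bile acid hormone, read 6.76 to 10.24 TPM in si-NC and 10.14 to 10.95 TPM in si-CENPU, and its receptor FGFR4 117.4 to 135.7 and 112.4 to 138 TPM. Of 17 TGF-beta and BMP genes (median 0) there was 1, SKIL, a SMAD co-repressor, at 0.36, 0.93 and 1.09 TPM and 1.51, 1.29 and 2.52 TPM. SKIL, like NOTCH3, entered the fit only through the si-CENPU group. Of 13 genes of the IGF and insulin axis (median 0.071) and 14 of the Hippo pathway (median 0.032) there were 0. The YAP target CCN2 read 16.66 to 28.52 TPM in si-NC and 19.34 to 30.58 TPM in si-CENPU.

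Cell shape genes held 1 wide change. TPM4, a tropomyosin that coats actin filaments, read 11.46, 19.73 and 19.99 TPM in si-NC and 31.25, 22.58 and 35.06 TPM in si-CENPU, a change of 0.78 with an adjusted limma p of 0.848. It was the 1 of 33 tested actin genes at an unadjusted p below 0.05 (median -0.004), and TPM1 read 9.46, 11.43 and 11.75 TPM and 9.34, 7.19 and 8.9 TPM, lower in every si-CENPU library. Of 20 keratin and junction genes (median -0.045) 1 had an unadjusted p below 0.05, CLDN3, a tight junction protein, at 6.05, 7.83 and 7.1 TPM and 5.82, 5.66 and 5.3 TPM.

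No gene that handles siRNA or senses foreign RNA was called. Of 8 tested genes of RNA interference 0 had an unadjusted p below 0.05 (median -0.001), with TARBP2, a partner of Dicer, at 119.3 to 129.1 TPM in si-NC and 107.3 to 121.8 TPM in si-CENPU. Of 18 nucleic acid sensors and interferon genes 1 did (median 0.038). OAS3, which makes the activator of RNase L, read 5.62, 4.87 and 5.07 TPM in si-NC and 4.36, 3.67 and 3.64 TPM in si-CENPU, lower in every si-CENPU library (change -0.34, adjusted limma p 0.875). ISG15 read 397.2 to 486.9 TPM and 360 to 418.9 TPM, and IFITM3 311.3 to 348.5 and 287.8 to 324.5 TPM.

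**Figure D4:**
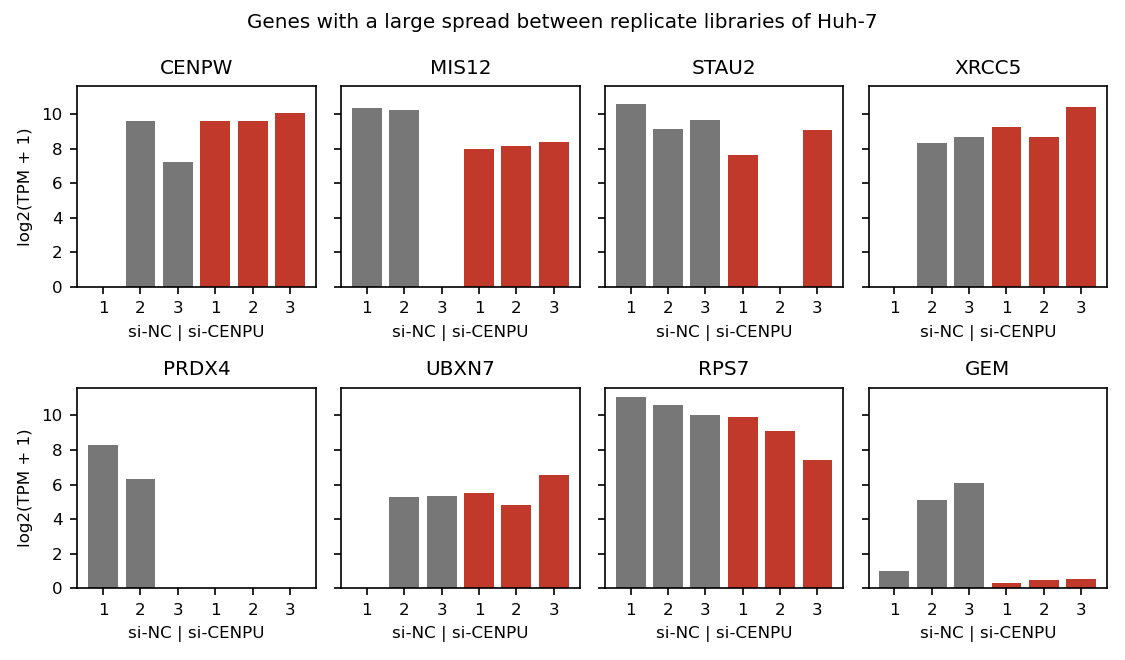
log2(TPM + 1) (vertical axes, bars from 0) in the 3 si-NC (grey) and 3 si-CENPU (red) libraries of Huh-7, replicates 1 to 3, for 8 genes with a large spread. CENPW, MIS12, STAU2, XRCC5, PRDX4 and UBXN7 are listed at 0 in at least 1 library and far above it in others.

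Some of the widest changes came from genes that replicate libraries disagreed on. Of the genes with a mean of at least 10 TPM, 43 were listed at 0 in at least 1 Huh-7 library, among them 7 protein-coding genes and 19 small nuclear RNAs, and such a 0 can be a failed estimate. CENPW, an inner kinetochore histone-fold protein, was listed at 0, 774.17 and 146.03 TPM in si-NC and at 767.94, 778.95 and 1067.93 TPM in si-CENPU. MIS12, an outer kinetochore protein, read 1306.21, 1214.21 and 0 TPM in si-NC and 247.6, 278.94 and 336.82 TPM in si-CENPU. Its change was 1.30 with all libraries and -2.14 without si-NC replicate 3, where its limma adjusted p was 0.0014. XRCC5, which encodes the Ku80 DNA end-binding protein, read 0, 323.3 and 407.37 TPM and 601.43, 409.94 and 1355.32 TPM. STAU2, an RNA transport protein, read 1500.21, 556.32 and 818.22 TPM and 197.37, 0 and 531.64 TPM. PRDX4, the peroxiredoxin of the ER, read 310.86, 79.75 and 0 TPM in si-NC and 0 in all 3 si-CENPU libraries, and its limma adjusted p was 0.839, and 0.000163 without si-NC replicate 3. All of these were chosen after their values were seen or for their spread. PRDX4 entered the fit only through the si-NC group, so its means had to differ.

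RPS7 and GEM were never at 0 but also differed between replicate libraries, RPS7 less so than GEM. RPS7, a protein of the small ribosomal subunit, read 2142.62, 1572.26 and 1050.19 TPM in si-NC and 959.66, 542.15 and 168.7 TPM in si-CENPU, without overlap, whereas the abundant ribosomal protein genes RPS15, RPS27 and RPL35 had changes of -0.037 to 0.033. GEM, a small GTPase, read 1.03, 33.17 and 68.25 TPM in si-NC and 0.24, 0.4 and 0.45 TPM in si-CENPU. All si-CENPU libraries of GEM were under 0.5 TPM while controls ran from 1.03 to 68.25 TPM, with a change of -3.63, an adjusted limma p of 0.751, and 2.61e-05 without si-NC replicate 1. GEM entered the fit only through the si-NC group, so its means had to differ. Small nuclear RNAs and 5S rRNA copies were similar. RNA5S15 had the lowest change of all genes, -5.67, on libraries of 336.95, 457.52 and 1173.47 TPM in si-NC and 1391.07, 0 and 0 TPM in si-CENPU. Near-identical copies of such genes share reads, so the split among them is uncertain.

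The most abundant protein-coding genes had small changes. FTL, the ferritin light chain, averaged 31819 ± 998 TPM in controls and 32133 ± 748 TPM after si-CENPU, and GSTP1, a glutathione transferase, at 19863 ± 866 and 19337 ± 321 TPM. RPL35 stood at 27730 ± 2634 and 27716 ± 1911 TPM. Changes of these 3 genes were between -0.038 and 0.014. Among the most abundant genes were also a pair of unnamed long non-coding genes on chromosome 21, ENSG00000280614 and ENSG00000280441, with changes of -0.17 and -0.24 and lowest values in si-CENPU replicate 2. ENSG00000280614 read 21518.09, 31033.58 and 26815.35 TPM in si-NC and 32769.28, 13475.76 and 28270.71 TPM in si-CENPU, which overlap. At the other end, CIT was just inside the limit of 1 TPM, with a change of -0.009, and SBF2-AS1 and SMG1P1 lay just outside it. SMG1P1 read 0.73, 0.89 and 0.84 TPM in si-NC and 1.05, 1.13 and 1.35 TPM in si-CENPU.

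The change in Huh-7 was set beside that in MHCC-97H, which shares no library with it. Of the 491 genes at an unadjusted p below 0.05 in Huh-7, 52 were also below it in MHCC-97H, which is 10.6% of the Huh-7 genes and 17.5% of the 297 MHCC-97H genes (3.04% of the 9761). Of these, 30 were higher in both lines, 8 lower in both and 14 opposite. Both p-values of a gene use the same estimate of its spread, so the 2 lists are not independent of each other. Across the 8005 genes with a mean of at least 1 TPM in each line, the 2 changes had a Pearson r of -0.011 and a Spearman rho of 0.023, a description across genes, which are not independent replicates. The other 1756 Huh-7 genes were under that level in MHCC-97H, so their change could hardly be compared.

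EMC6, OGFR, MED11 and PCNX3 were the leading genes at an unadjusted p below 0.05 in both lines, all higher. None of the leading genes listed lower was below it in both. CAB39L changed by 0.76 in Huh-7 and -0.02 in MHCC-97H, and DIPK1B by -0.54 and -0.05. EMC6 read 195.7, 241.47 and 229.6 TPM in MHCC-97H si-NC and 347.91, 303.67 and 328.5 TPM in si-CENPU, a ratio of means of 1.47 there and 1.45 in Huh-7. The difference of its 2 changes was 0.021 ± 0.124 (SE), with an unadjusted limma p of 0.868. OGFR had changes of 0.66 in Huh-7 and 0.51 in MHCC-97H, MED11 0.80 and 0.55, PCNX3 0.50 and 0.70, and RGS19, a regulator of G protein signalling, 0.53 and 0.74. In Huh-7 the controls of RGS19 read 7.5, 7.99 and 7.36 TPM, and its si-CENPU libraries 11.92, 11.78 and 10.74 TPM. TPM4, GANAB, TRIB3, IER2 and MKNK2 were also higher in both lines at an unadjusted p below 0.05, and OAS3 and COMMD5 lower in both. PLK3 was opposite, 0.31 in Huh-7 and -0.28 in MHCC-97H. Of these named genes, 0 were called in either line, with limma adjusted p in Huh-7 of 0.232 for EMC6 and OGFR and above that for the rest. For the difference between the lines 332 genes had an unadjusted p below 0.05 (3.4%) and 1 was called (0.0102%), MAP2K4.

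**Figure D5:**
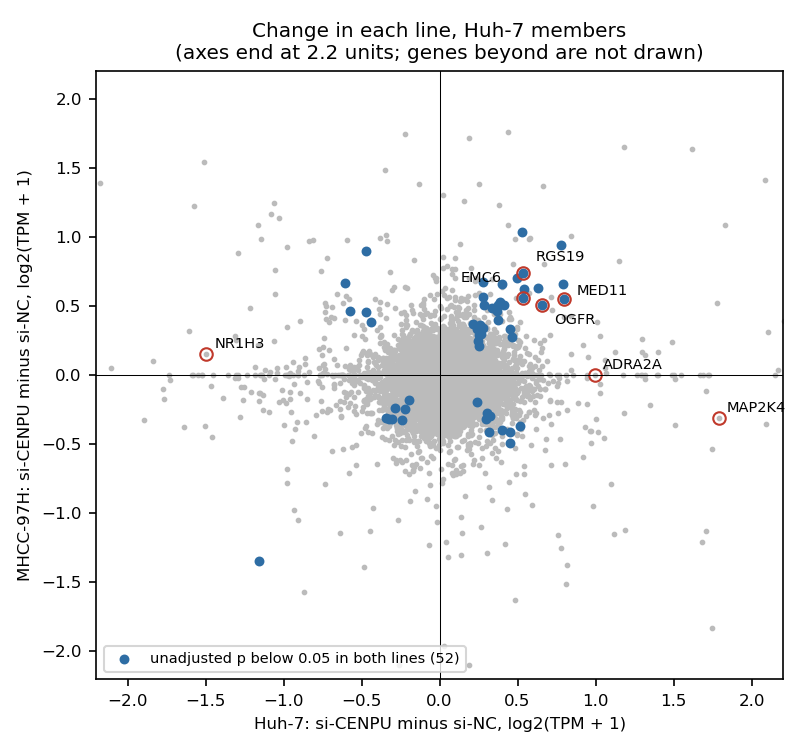
Change after si-CENPU (difference of mean log2(TPM + 1)) in Huh-7 (horizontal) and MHCC-97H (vertical) for the Huh-7 genes, with the 52 genes at an unadjusted p below 0.05 in both lines in blue and 7 named genes ringed in red. EMC6, OGFR, MED11 and RGS19 lie in the upper right, at 0.53 to 0.80 in Huh-7 and 0.51 to 0.74 in MHCC-97H, MAP2K4 at 1.79 and -0.31, and NR1H3 at -1.50 and 0.15.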

How the data were processed

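RNA was sequenced from 6 Huh-7 libraries, 3 with si-NC and 3 with si-CENPU, and from 6 MHCC-97H libraries of the same design. Per the labels' protocols, PureLink was used to isolate RNA and Illumina TruSeq RNA to build libraries. The authors deposited TPM per gene. Per the submitters' processing notes, HISAT2 and StringTie were used with genome GRCh38.p13. Which versions, annotation, strand setting and filters were used is not given in the sources used here. Huh-7 columns summed to 998416 to 998884 TPM. Columns and groups were matched by the sample titles.

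Genes with a mean of at least 1 TPM over the 6 Huh-7 libraries were tested. This let in 265 genes only through the si-CENPU group and 231 only through the si-NC group, and the means of these genes have to differ. Values were put on the scale log2(TPM + 1), and a linear model with 1 mean for each of the 4 groups was fitted to all 12 libraries with limma 3.58.1 in R 4.3.3, with empirical Bayes moderation and a mean-variance trend. This pools the spread over both lines, which can fail for genes that MHCC-97H does not express. P-values were two-sided and Benjamini-Hochberg adjusted over all 9761 genes, with a call at an adjusted p below 0.05. CENPU, E2F1 and E2F6 averaged under 1 TPM and had exact permutation tests. Nothing in the labels says that replicate numbers pair the libraries, so the reported fit held no replicate block. The scripts were tested on simulated data, with normal errors of the spread of these genes and 200 genes changed in Huh-7. At an adjusted p below 0.05, 16.4% of those changed by 0.5 log2 units were recovered, 68.7% at 1 unit and 95.5% at 2. A gene that was not called can thus still have changed. Symbols were matched by Ensembl identifier (60447 of 60664), coordinates and overlaps with protein-coding genes came from GENCODE 29 on GRCh38, and promoter windows and their letters came from RefSeq on GRCh38.p14.

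Named were CENPU, called genes, the 10 protein-coding genes per direction with the smallest p and no overlap, the most abundant, the most variable and those nearest the limit, and up to 3 tested genes per list by p with its most abundant one. The members, the 51 lists and this rule were chosen with earlier results of these data known. Alternatives were pseudocounts of 0.1 and 0.5, no filter or stricter ones, trimmed mean of M-values (written out in R), quantile and other rescaling, a GC correction, a replicate block, Huh-7 alone, other moderation, library weights and leaving out each library. The GC correction together with the block and a fit of protein-coding genes only were chosen after seeing the data. Some genes that this rule names are not reported here. The plots were made in matplotlib 3.10.9.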

Additional observations from a re-analysis of the deposited data

Results flagged for a closer look

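MAP2K4 was singled out because its response differed between the lines by a test of the difference itself. On the log2(TPM + 1) scale it changed by 1.79 after si-CENPU in Huh-7, while in MHCC-97H the value was -0.31, a difference of -2.1 ± 0.235 (SE) with a limma adjusted p of 0.0223. All 3 Huh-7 si-CENPU libraries (4.33, 5.12 and 4.86 TPM) were above the other 9 libraries of the study, which ran from 0.42 to 1.25 TPM. The limma adjusted p of the difference was 0.131 with a pseudocount of 0.1, 0.0577 with no filter and 0.0919 with a replicate block. It ran from 0.0073 to 0.135 when each library was left out in turn, and the call was lost in 7 of those 12 fits. MAP2K4 entered the tested set only through the Huh-7 si-CENPU group, so its Huh-7 means had to differ.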

How the results depend on the processing

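Over 29 alternative fits, 12 of which left out 1 library each, MAP2K4 kept its direction wherever it was tested, and MIS12, not called in the reported fit, turned from 1.30 to -2.14 without si-NC replicate 3. MAP2K4 kept its call except in fits of Huh-7 alone (adjusted p 0.309, and 0.999 with the replicate block) and with a replicate block in the fit of both lines, and it was not tested at a mean of at least 5 TPM in Huh-7 or of at least 1 TPM in each line, where 0 genes were called higher. Counts at an unadjusted p below 0.05 were 164 higher and 122 lower at 5 TPM (4858 genes tested), and 176 and 124 with Huh-7 alone, where 0 genes were called higher. With no filter (26342 genes tested) 4 genes were called higher and 1 lower, and 710 and 574 had an unadjusted p below 0.05. Trimmed-mean scaling called 1 lower. Quantile normalization called 3 higher and 3 lower, with 438 and 412 unadjusted and 2 for the difference between lines. GC correction called 2 higher and 1 lower, with 365 lower unadjusted. Library weights, whose estimation stopped before it converged, called 2 lower, with 349 unadjusted, and 5 for the difference. The difference had 0 calls with a pseudocount of 0.1, at 5 TPM and at 1 TPM in each line. Leaving out each library in turn gave 1 to 2 genes called higher, 0 to 3 lower, 204 to 548 higher and 131 to 382 lower at an unadjusted p below 0.05, and 0 to 5 called for the difference. The highest and lowest counts of higher genes came without si-CENPU replicate 1 (548) and replicate 3 (204), and those of lower genes without si-NC replicate 1 (382) and si-CENPU replicate 2 (131). CENPU differed by -0.52 to -0.32 when a library was left out. The cause of these movements was not tested.

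Nothing in the labels says that replicate numbers pair the libraries. Same-numbered Huh-7 libraries deviated from their group means with correlations of -0.039, -0.089 and 0.024, and 0 of 3 matched its own number best. With 3 libraries per group these values cannot exclude a pairing. With the replicate block 0 genes were called higher, MAP2K4 had an adjusted p of 0.0542, and 0 were called for the difference. GC correction with the block called 1 higher (MAP2K4, 0.0461) and 0 for the difference, with 427 higher and 376 lower at an unadjusted p below 0.05. Huh-7 alone with the block called 0 higher, with 111 lower unadjusted.

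Of 7150 values of single genes under an alternative, 6983 kept their side of the threshold and size, 19 passed it, 3 lost it and 145 moved by more than the spread. Of 1479 list medians 2 moved by more, both for the inner kinetochore (2.05 at 5 TPM, where 2 genes were left, and 0.116 without si-CENPU replicate 2). The unknown depth limits every gene near 1 TPM, CENPU included.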

Other observations

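Values that belong to no comparison above include genes called only under a setting other than the reported fit. With no filter on low values, CD80, a T cell co-stimulator, was called higher. All 3 controls were listed at 0, and si-CENPU libraries read 1.62, 0.71 and 0.88 TPM. LINC01414 and FAM193B-DT were called higher on values of 0 in si-NC and of 0.08 to 0.1 and 0.12 to 0.22 TPM in si-CENPU, and ENSG00000272510 lower on 0.25 to 0.27 TPM in si-NC and 0 in si-CENPU. Levels this low can be failed estimates.

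DLGAP2, called without si-CENPU replicate 1, was listed at 0 in all controls and in that replicate, and at 4.58 and 3.09 TPM in the other 2. WASHC1, called without si-CENPU replicate 3, was listed at 0 in all controls and at 4.13, 2.56 and 0 TPM in si-CENPU. ARSD-AS1, called lower without that same library, read 4.54, 3.23 and 4.15 TPM in si-NC and 0, 0 and 2.32 TPM in si-CENPU. PPP1R1C, an inhibitor of protein phosphatase 1, was called lower without si-NC replicate 1 and read 1.05, 2.31 and 3.04 TPM in si-NC and 0.85, 1.02 and 1.02 TPM in si-CENPU. DLGAP2 and WASHC1 entered the tested set only through the si-CENPU group, and ARSD-AS1 and PPP1R1C only through the si-NC group. The means of these genes thus had to differ. RPL29P4, a ribosomal protein pseudogene, was called higher without that control and read 2.72, 0.52 and 0.28 TPM in si-NC and 2.25, 2.24 and 1.59 TPM in si-CENPU.

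FBXO5 and UBXN7 were further genes whose libraries disagreed. FBXO5, an inhibitor of the anaphase-promoting complex, read 62.19, 0 and 28.88 TPM in si-NC and 0.69, 27.23 and 0 TPM in si-CENPU. UBXN7, an adaptor of the p97 ATPase, read 0, 37.97 and 39.48 TPM in si-NC and 45.5, 27.29 and 91.42 TPM in si-CENPU.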
